A study of Mus musculus with 7 samples.

Results

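Heterozygous Taf10 fetal livers were compared with livers that carried no Cre recombinase, over the 5 libraries labelled TAF10HET (3 libraries) and WT (2 libraries) of the 7 libraries in the series. All were single fetal livers of C57BL/6 mice at stage E12.5, and RNA was taken from a suspension of the whole liver's cells. The labels use WT for livers with both Taf10 alleles lox-flanked (lox_lox) and no Cre (NEG), so the control livers held no Taf10 allele labelled wt. Every TAF10HET liver held an allele labelled wt and carried EpoCre, written EpoR-Cre in the series' design text. TAF10HET replicate 1 paired that allele with a lox-flanked one (lox_wt), and TAF10HET replicates 2 and 3 paired it with one labelled ko (wt_ko). The 2 TAF10KO livers (lox_lox with EpoCre in their titles, lox over KO in the design text) entered the fit to help estimate the spread. Their values are also given beside those of some genes.

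The titles carry one of a pair of date codes. The first date code holds TAF10HET replicate 1 and WT replicate 1, and the second holds TAF10HET replicates 2 and 3 and WT replicate 2. The lox_wt genotype was therefore present on the first date code only and the wt_ko genotype on the second only, so allele type and date code cannot be told apart. EpoCre carriage and the presence of a wt allele both separate TAF10HET from WT completely, and between these groups they cannot be told apart either. The TAF10KO livers carried EpoCre and no allele labelled wt. The labels do not say how the ko allele was made, or whether the livers came from separate litters, so p-values measure the spread between these livers.

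TAF10 is a subunit of TFIID, the general transcription factor that places RNA polymerase II at promoters, and of SAGA, a coactivator that carries histone acetyltransferase and deubiquitinase activities. The fetal liver at midgestation is the main site of red cell production, where erythropoietin acting through its receptor keeps erythroid progenitors alive. A Cre driven from the erythropoietin receptor gene acts in erythroid cells, while the liver suspension also holds hepatoblasts, endothelial and mesenchymal cells, macrophages and other blood cells.

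The libraries held 18008391 to 27280055 reads assigned to genes in TAF10HET and WT. By Xist, TAF10HET replicate 1 was male and the other 4 livers of the comparison were female. Transcripts that define fetal liver were abundant in all 5 libraries, among them the fetal plasma protein gene Afp at 6602 to 10316 normalised reads (CPM, counts scaled to a common library total). Levels are CPM and differences are log2 fold changes of TAF10HET over WT from edgeR's quasi-likelihood fit with the date code as a block. In bulk RNA, fewer cells of a type and less RNA per cell cannot be told apart.

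Taf10, the gene that carries the genotype (chr7:105739393-105744361 in mm10, minus strand), was measured first. TAF10HET replicates 1 to 3 held 78.1, 63.7 and 63 CPM, and the 2 controls held 72 and 96.5 CPM. The groups overlapped: the lox_wt liver lay between the control livers, and both wt_ko livers lay below both. The fitted difference was -0.31 (SE 0.15, n = 3 and 2, adjusted p = 0.999 by edgeR's quasi-likelihood test). Within date codes the difference was 0.12 for TAF10HET replicate 1 on the first and -0.60 and -0.61 for replicates 2 and 3 on the second. With WT replicate 2 left out the fitted value was -0.028, while it was -0.53 with WT replicate 1 left out and -0.56 with TAF10HET replicate 1 left out. The TAF10KO livers, for scale, stood at 37.8 and 43.8 CPM.

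Epor encodes the erythropoietin receptor, and the Cre driver is named for it (chr9:21958897-21963506, minus strand). TAF10HET replicates 1 to 3 held 156, 139 and 125 CPM, and the 2 controls held 158 and 239 CPM. All 3 TAF10HET livers lay below both control livers, replicate 1 only just so. The fitted difference was -0.50 (SE 0.17, adjusted p = 0.999 by edgeR's quasi-likelihood test). Within date codes it was -0.016 for replicate 1 and -0.78 and -0.93 for replicates 2 and 3. The value moved to -0.16 when WT replicate 2 was left out, to -0.78 for WT replicate 1 and to -0.77 for TAF10HET replicate 1. With no filter on low counts the same size passed the threshold (adjusted p = 1.25e-05 by the same test). That fit also passed Y-linked Ddx3y (adjusted p = 2.22e-167 by the same test). Ddx3y had 1957 reads in TAF10HET replicate 1 and 0 in replicates 2 and 3. The p-values with no filter thus take little account of the spread between livers. TAF10KO livers, which also carry EpoCre, stood at 83.1 and 99.2 CPM.

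**Figure D1:**
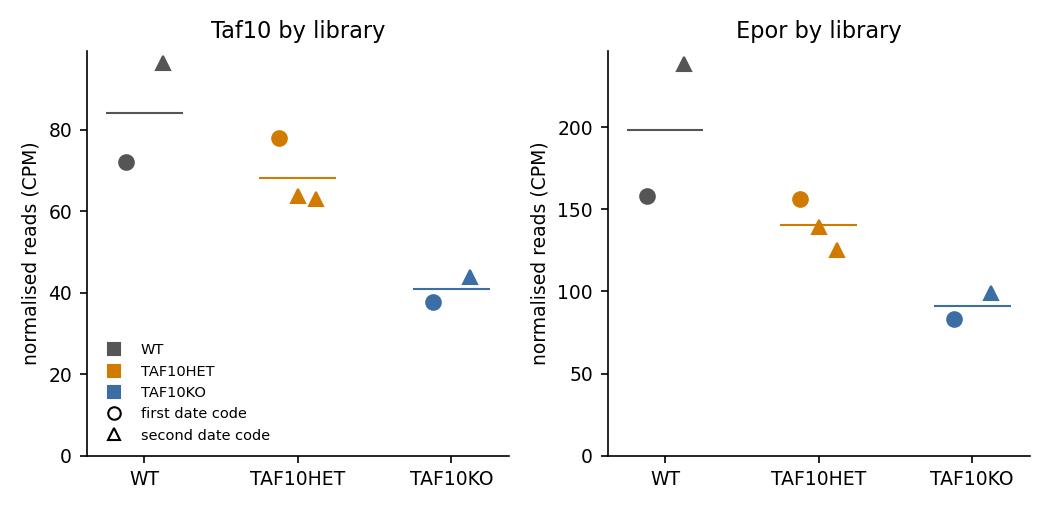
Normalised reads (CPM, axes from 0) of Taf10 and Epor in each of the 7 libraries, with circles for the first date code, triangles for the second and lines at group means. On the second date code both TAF10HET livers lie below the WT liver for both genes, and on the first date code TAF10HET replicate 1 lies close to its WT liver.

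Both genes thus had a difference on the second date code and little on the first. A fit that let the TAF10HET difference depend on the date code, chosen after the data were seen, gave a gap between the dates of -0.72 for Taf10 (SE 0.101, adjusted p = 0.0138 by edgeR's quasi-likelihood test). For Epor the gap was -0.83 (SE 0.115, adjusted p = 0.0153). That fit has 1 residual degree of freedom, which comes from TAF10HET replicates 2 and 3. Of the 15800 genes tested, 102 (0.646%) passed this test at adjusted p under 0.05, while 211 of 15291 did on the 5 TAF10HET and WT libraries alone and 45 with DESeq2. DESeq2 gave the same sizes, with an adjusted p of 0.947 for Taf10 and 0.0496 for Epor, so the call for Taf10 ended there. With a single lox_wt liver, its embryo sex, allele type and date code cannot be told apart in these gaps. Each date code also held a single WT liver, and the gaps rest on these as well. From the first date code to the second, WT went from 72 to 96.5 CPM for Taf10 and from 158 to 239 CPM for Epor. Over the same dates TAF10HET went from 156 to 139 and 125 CPM for Epor.

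Across the genome, 1 of 15800 genes tested was called in TAF10HET against WT at adjusted p under 0.05 (0.00633%), and it was higher. At unadjusted p under 0.05, 530 genes (3.35%) differed, 322 higher (2.04%) and 208 lower (1.32%). The median difference over all genes was 0.0088, and 52.7% of genes lay above 0. All 3 TAF10HET livers lay above both WT livers for 684 genes (4.33%) and below both for 782 (4.95%), which makes 9.28% of genes with no overlap between groups. The number called depended on single libraries: it was 13 when either TAF10KO replicate 1 or TAF10KO replicate 2 was left out, 8 when TAF10HET replicate 1 was, 2 when WT replicate 1 was, and 0 when WT replicate 2 or TAF10HET replicate 3 was. It was 7 on the 5 libraries alone, 9 with DESeq2, 32 with embryo sex as a term and 289 with no filter on low counts. A gene given below as not called may therefore pass in one of these fits. Both sets of 13 held the Y-linked genes Eif2s3y, Uty, Kdm5d and Ddx3y and the muscle genes Actn2, Tnnt2 and Myh8. Among TAF10HET livers, reads of the Y-linked genes lay almost wholly in the male replicate 1. Uty and Kdm5d were also among the 9 with DESeq2.

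The called gene was Hbb-bt, 1 of the pair of adult beta-globin genes (beta-t; chr7:103812524-103813996, minus strand), which makes the beta chain of adult haemoglobin. Its neighbour Hbb-bs (beta-s, chr7:103826534-103828096) codes for the same chain in the GENCODE M21 transcripts. Farther along lie Hbb-bh1 (chr7:103841637-103843164) and Hbb-y (chr7:103851749-103853216), the beta-like genes of embryonic haemoglobin. All 4 sit about 1.9 Mb from Taf10 on chromosome 7. Their coding sequences decide how well short reads can be assigned to each gene, so the last 60 of the 444 coding bases are shown, read in GENCODE M21 transcripts on mm10, minus strand, at chr7:103812656-103812715 for Hbb-bt, chr7:103826665-103826724 for Hbb-bs, chr7:103841752-103841811 for Hbb-bh1 and chr7:103851874-103851933 for Hbb-y. A capital in Hbb-bt marks the base that differs from Hbb-bs, and capitals in the other genes mark bases that differ from Hbb-bt.

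Hbb-bt: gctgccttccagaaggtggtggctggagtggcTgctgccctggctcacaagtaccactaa

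Hbb-bs: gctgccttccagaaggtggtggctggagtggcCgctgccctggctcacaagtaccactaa

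Hbb-bh1: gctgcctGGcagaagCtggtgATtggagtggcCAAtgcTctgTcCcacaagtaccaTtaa

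Hbb-y: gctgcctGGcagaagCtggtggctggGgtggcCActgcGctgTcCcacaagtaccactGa

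Hbb-bt and Hbb-bs differed at 1 of 444 coding bases (99.77% identity), with an identical run of 416 bases. Hbb-bh1 and Hbb-y differed at 105 coding bases (76.35% identity), and their longest identical run was 26 bases. Over whole transcripts, 41.7% of the windows of 50 bases in Hbb-bt and 34.2% of those in Hbb-bs were absent from the other gene. Reads that aligned to several places were left out of the deposited gene counts, so the counts of Hbb-bt and Hbb-bs rest on the parts where they differ, and their assignment is uncertain. The embryonic pair shares no run that long.

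Hbb-bt rose in TAF10HET. TAF10HET replicates 1 to 3 held 4967, 5411 and 4915 CPM, and the 2 controls held 967 and 693 CPM. Every TAF10HET liver was above every control. The rise was 2.71 on the log2 scale (SE 0.20), or 6.53-fold, with an adjusted p of 0.0245 by edgeR's quasi-likelihood test. It was 2.36 on the first date code and 2.96 and 2.83 for the livers of the second. TAF10KO livers stood at 1072 and 636 CPM, and their difference from WT was 0.025. The call ended with non-robust dispersions (adjusted p = 0.0531), without the date block (1) and without TAF10HET replicate 3 (0.299), WT replicate 1 (0.245) or WT replicate 2 (0.663), while the fold stayed between 2.60 and 2.96 on the log2 scale.

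Hbb-bs stood at 14377, 18362 and 16283 CPM in TAF10HET and 13032 and 24176 CPM in WT, and the groups overlapped. Its fitted difference was -0.23 (SE 0.17). Of the reads given to the adult pair, Hbb-bt made up 25.7%, 22.8% and 23.2% in TAF10HET replicates 1 to 3. Its share was 6.91% and 2.79% in the controls and 10.7% and 3.56% in the TAF10KO livers. For the largest share the Wilson 95% interval was 25.5% to 25.8%, which covers counting error only. The 3 livers that hold a wt allele thus had Hbb-bt shares above those of both WT and both TAF10KO livers. Added together, the adult pair stood at 19344, 23773 and 21198 CPM in TAF10HET and at 13999 and 24869 CPM in WT, and these ranges overlapped.

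Hbb-bh1, an embryonic beta-like globin, stood at 432, 764 and 925 CPM in TAF10HET and 234 and 494 CPM in WT. The lowest TAF10HET liver lay below WT replicate 2, but each TAF10HET liver was above the control of its own date code, by 0.89, 0.63 and 0.91 on the log2 scale. The fitted difference was 0.83 (SE 0.11, adjusted p = 0.393 by edgeR's quasi-likelihood test). It passed the threshold with DESeq2 and in the fit on the 5 libraries alone (adjusted p = 0.0429 by edgeR's quasi-likelihood test). It also passed by that test with embryo sex as a term (0.0381) and with no filter (9.47e-12). The last of these fits takes little account of the spread between livers. With either TAF10KO replicate left out the difference was 0.82. Hbb-bh1 held 18.02%, 18.5% and 23.5% of the reads of the pair Hbb-bh1 and Hbb-y in TAF10HET, against 10.8% and 14.5% in WT. The TAF10KO shares, 14.9% and 20.1%, lay among those of TAF10HET or between the groups. Hbb-y itself stood at 1966, 3367 and 3016 CPM in TAF10HET and 1936 and 2902 CPM in WT, with a difference of 0.11 (SE 0.12).

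Per kilobase of exon (RPKM), Hbb-bs was the highest of the 4 beta-like genes in all 5 libraries, at 18720 to 23909 in TAF10HET and 16969 and 31479 in WT. Hbb-y stood at 3105 to 5320 RPKM in TAF10HET and 3058 and 4584 in WT, and Hbb-bh1 below it in each library, at 705 to 1510 and 381 and 805. Hbb-bt had 7066, 7696 and 6992 RPKM in TAF10HET and 1376 and 986 in WT. This scale divides by the whole exon length, while the reads of Hbb-bt and Hbb-bs rest on the parts where the pair differs. The values of both may therefore be too low, and no order of Hbb-bt against Hbb-y was read from them.

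The alpha-globin genes on chromosome 11 were read as a comparison within haemoglobin. Hba-a1 stood at 6979, 10474 and 6499 CPM in TAF10HET and 5811 and 6723 CPM in WT, and Hba-a2 at 3736, 3738 and 3759 and 2639 and 3271 CPM. These adult alpha genes are also near-identical copies, so reads cannot be assigned to each with certainty. Their differences were 0.31 and 0.32, and neither passed the adjusted threshold. Hba-a1 overlapped between groups, while Hba-a2 was above both controls in all 3 TAF10HET livers, as were 4.33% of all genes. Of the 4 adult globin genes, 2 were higher at unadjusted p under 0.05, Hbb-bt among them (beside 2.04% of all genes). Embryonic Hba-x stood at 282, 894 and 848 CPM in TAF10HET and 317 and 802 CPM in WT, which overlap, with a difference of 0.062. Of the 7 globin genes listed, 1 was called and 6 were not.

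**Figure D2:**
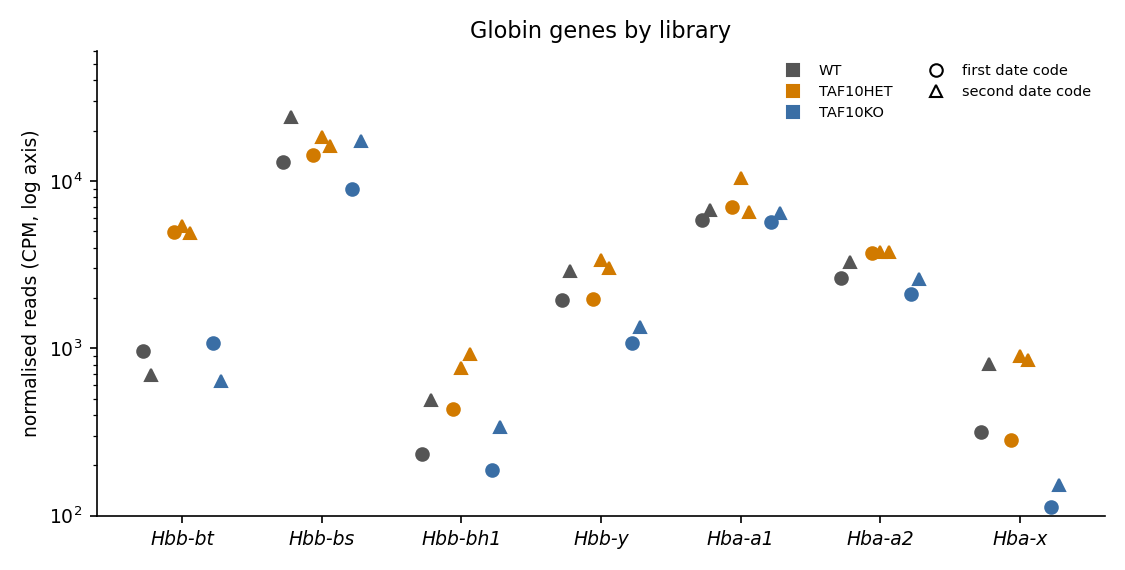
Normalised reads (CPM, log axis) of 7 globin genes in each library, with circles for the first date code and triangles for the second. For Hbb-bt the 3 TAF10HET livers lie at 4915 to 5411 CPM, apart from the WT and TAF10KO livers at 636 to 1072 CPM. For Hbb-bh1 each TAF10HET liver lies above the WT liver of its date code, and for the other 5 genes the differences are 0.32 or less in size.

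Genes around Taf10 were examined because every TAF10HET liver carried a chromosome 7 with a wt allele and both WT livers carried lox on both copies. Whether sequence around the allele differs between these chromosomes was not tested. Within 2 Mb of Taf10, 36 genes were tested and 12 had an unadjusted p under 0.05, beside 3.35% of all genes. Of the 12, 5 passed the count filter only through the TAF10HET libraries, so a higher value in TAF10HET was favoured by the filter and nothing is read from the count over the 36. Among genes that averaged 1 or more in log2 CPM across the 5 livers, the level used for naming genes and applied here after the data were seen, 6 of 24 within 2 Mb had an unadjusted p under 0.05 (25%, 5 higher and 1 lower), beside 2.98% of all 12112 such genes. They were Hbb-bt, Hbb-bh1, Gm8995, Trim3, Trim6 and Trim12c. Between 2 and 10 Mb the share was 3.77% of 106 genes, on the rest of chromosome 7 it was 2.69% of 744, and on the other chromosomes 2.95% of 11166. The members of a neighbourhood share a chromosome and are not independent of each other.

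The 5 genes that passed the filter only through TAF10HET had few reads in the other livers, and their values are given as a description. Olfr631, an olfactory receptor gene, had 16, 22 and 15 reads in the TAF10HET libraries and 1 and 0 in the controls. Trim5 had 14, 18 and 9 reads in TAF10HET and 1 and 1 in WT, and Trim30d had 19, 19 and 11 and 1 and 2. Both belong to the TRIM family, ubiquitin ligases known for antiviral roles. Gm1966, annotated as a pseudogene, had 53, 82 and 45 reads in TAF10HET and 0 and 3 in WT. Hbb-bh2, a minor member of the beta-globin cluster, had 11, 8 and 9 reads in TAF10HET and 3 and 1 in WT.

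In normalised units these were low levels. Gm1966 stood at 2.74, 3.17 and 2.64 CPM in TAF10HET, 0 and 0.139 in WT and 0.0272 and 0 in TAF10KO. Trim30d stood at 0.983, 0.735 and 0.645 CPM in TAF10HET, 0.0364 and 0.0928 in WT and 0 in both TAF10KO livers. Olfr631 stood at 0.828, 0.850 and 0.880 CPM in TAF10HET and 0.0364 and 0 in WT, and Trim5 at 0.724, 0.696 and 0.528 and 0.0364 and 0.0464 CPM. For each of these 4 genes the TAF10HET livers did not overlap the WT or the TAF10KO livers, and none passed the adjusted threshold of edgeR's quasi-likelihood test (adjusted p = 0.393 for Gm1966 and 0.999 for the others). Gm1966 did pass on the 5 libraries alone (0.0429), without TAF10KO replicate 1 (0.0210) or 2 (0.0231) and with embryo sex as a term (0.0344), and with DESeq2 (8.65e-05), and all 4 passed with no filter. Of the 15800 genes tested, 6 stood below 0.2 CPM in both WT livers and at 0.4 CPM or more in all 3 TAF10HET livers. These 4 were among the 6, and 0 of the genes tested showed the reverse. The remaining pair were small RNA genes on other chromosomes, Rprl3 on chromosome 8 and Gm26316 on chromosome 11, chosen after their values were seen. Such genes pass the count filter through the group where they are high, so nothing is read from these counts or from the adjusted p-values of the 4 genes.

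Other genes of the TRIM cluster showed smaller differences, and these genes too were named after their values were seen. Trim34a stood at 1.40, 1.62 and 1.06 CPM in TAF10HET and 0.947 and 0.510 CPM in WT, with no overlap. Trim12a stood at 6.26, 5.64 and 7.33 and 2.59 and 5.15 CPM, also with no overlap. Trim12c was the 1 gene in the 2 Mb window that was lower at unadjusted p under 0.05, at 17, 14.3 and 14.4 CPM in TAF10HET and 21.7 and 19.1 CPM in WT (-0.42, SE 0.16). TRIM paralogs resemble each other, so reads may be split between them. Trim30a, by contrast, overlapped between groups at 8.17, 5.76 and 5.63 and 8.09 and 3.94 CPM.

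Of the 13 genes tested within 0.2 Mb of Taf10, a distance chosen after the data were seen, 1 had an unadjusted p under 0.05. The share over all genes was 3.35%. The groups overlapped for all 13, beside 9.28% of all genes with no overlap, and so few genes are too small a number to compare with these shares. Their differences ran from -0.57 to 0.50. The 1 gene was Trim3, a TRIM-family gene, at 11.4, 4.72 and 5.86 CPM in TAF10HET and 7.94 and 3.67 CPM in WT (0.50, SE 0.17). Dchs1, a large cadherin gene, stood at 42.5, 10.7 and 8.39 and 27.7 and 8.03 CPM (0.40, SE 0.21), with the first date code far higher in both groups. Hpx, which encodes the haem-binding plasma protein hemopexin, had a difference of -0.27 (SE 0.12), and Apbb1 one of 0.28 (SE 0.16). Rrp8, a nucleolar methyltransferase gene, stood at 33.2, 39.2 and 36.4 CPM in TAF10HET and 36.4 and 36.9 CPM in WT, a difference of -0.036 (SE 0.086). Tpp1, which encodes a lysosomal peptidase and lies next to Taf10, stood at 77.4, 94.8 and 90.5 and 85.7 and 90.3 CPM (-0.03, SE 0.083). Arfip2, Mrpl17 and Smpd1 had differences of 0.04, 0.012 and 0.011. Farther out on chromosome 7 lay a pair of genes that ranked next by p among the higher genes, with no overlap between groups. Lrrc32, a carrier of latent TGF-beta, stood at 16.8, 13.2 and 11.8 CPM in TAF10HET and 10.5 and 6.36 CPM in WT (0.84, SE 0.13, adjusted p = 0.870 by edgeR's quasi-likelihood test). Alg8, a glucosyltransferase of N-glycan assembly, stood at 42.7, 42.8 and 45.9 and 32.1 and 31.1 CPM (0.47, SE 0.082, adjusted p = 0.999 by the same test). Between TAF10HET and WT the Taf10 genotype and EpoCre carriage cannot be told apart, and the part of linked sequence was not tested. The TAF10KO livers, which carry EpoCre and no allele labelled wt, stood at 10.7 and 7.30 CPM for Lrrc32. For Alg8 they stood at 27.8 and 27.5 CPM.

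**Figure D3:**
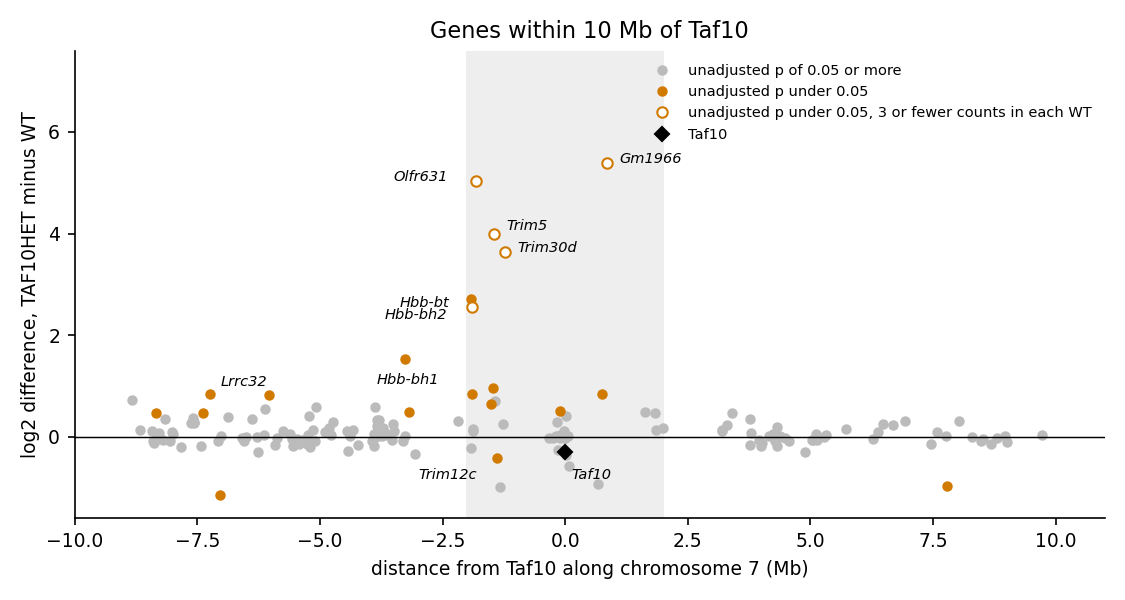
Log2 difference of TAF10HET from WT for genes tested within 10 Mb of Taf10 (black diamond), by distance along chromosome 7 in Mb, with orange for unadjusted p under 0.05 and open symbols for genes with 3 or fewer counts in each WT library, whose fold depends on the prior count. The shaded 2 Mb on either side hold 12 orange genes of 36, 5 of which passed the count filter only through TAF10HET, and the 13 genes within 0.2 Mb of Taf10 lie between -0.57 and 0.50.

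The machinery that TAF10 belongs to was examined as a pair of lists. Of 17 TFIID genes, 0 were called in either direction, 3 had a fitted difference above 0 and 14 below, and the median was -0.061 beside 0.0088 over all genes. The list holds Taf10 itself, at the low end of its range of -0.31 to 0.12. Taf15 was the most abundant member at 166, 148 and 145 CPM in TAF10HET and 168 and 165 CPM in WT. Taf8, which encodes a histone-fold partner of TAF10 in TFIID, stood at 29.6, 41.3 and 37 and 32.5 and 40.3 CPM with a difference of -0.069 (SE 0.094). Tbp, the TATA-binding subunit, had a difference of -0.057 (SE 0.076).

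Of 21 SAGA genes, 0 were called and the median was 0.0098. Eny2, a subunit of the deubiquitinase module, had the smallest p of the list, at 56.4, 46.5 and 45.2 CPM in TAF10HET and 49.6 and 35.2 CPM in WT. Its groups overlapped, and it was above the control of its date code in each liver, by 0.18, 0.40 and 0.36 (0.29, SE 0.081, adjusted p = 0.999 by edgeR's quasi-likelihood test). Kat2a, the acetyltransferase, stood at 54.2, 68.9 and 67.1 and 53.6 and 70.6 CPM with a difference of -0.0098. Supt7l, the histone-fold partner of TAF10 in SAGA, stood at 20.5, 24 and 23.5 and 24.2 and 25 CPM (-0.14, SE 0.092).

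Downstream of the receptor, the erythropoietin list had 12 genes, with 0 called, 3 higher and 1 lower at unadjusted p under 0.05 (beside 2.04% and 1.32% of all genes) and a median of -0.0048. The lower gene was Epor. Jak2, the kinase bound to the receptor, stood at 109, 170.5 and 160.03 CPM in TAF10HET and 126 and 179.7 CPM in WT (-0.14, SE 0.092). Among feedback targets of STAT5, Socs2 stood at 12.52, 7.27 and 7.98 and 6.60 and 6.26 CPM, above both controls in all 3 livers but by a small margin on the second date code (0.55, SE 0.21). Cish stood at 9.52, 16.2 and 16.4 and 11.4 and 17.6 CPM (-0.15, SE 0.13). Pim1, a survival kinase, overlapped between groups at 162, 237 and 221 and 149.9 and 231 CPM. Bcl2l1, the anti-apoptotic gene of erythroblasts, stood at 156, 223 and 172 and 129 and 162 CPM (0.27, SE 0.12).

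The red cell program apart from globin showed small differences. Median differences were 0.054 for 14 erythroid transcription factor genes, 0.023 for 14 haem synthesis genes, 0.0034 for 18 red cell membrane genes, 0.065 for 17 late maturation genes and 0.086 for 13 iron handling genes, with 0 called in each. Gata1, the master regulator of the lineage, stood at 191, 301 and 279 CPM in TAF10HET and 193 and 291 CPM in WT (-0.0027, SE 0.08). Klf1, an activator of the adult beta-globin gene, stood at 247, 489 and 452 and 284 and 428 CPM (0.029, SE 0.15). Bcl11a, a repressor of embryonic globin genes, stood at 77.4, 119.99 and 125 and 86 and 129 CPM (-0.10, SE 0.073). All 3 regulators were higher on the second date code than on the first in both groups, and the groups overlapped.

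Among the enzymes and carriers, Slc4a1, the band 3 anion exchanger, stood at 3145, 6328 and 5357 CPM in TAF10HET and 3614 and 4970.01 CPM in WT. Slc25a37, the mitochondrial iron importer, stood at 2439.8, 4904 and 4114 and 2566 and 4225 CPM. Tfrc, the transferrin receptor, stood at 2018, 2729.7 and 2225 and 2289.5 and 2636 CPM. Their differences were 0.089, 0.05 and -0.13, with groups that overlapped. Ube2o, a ubiquitin ligase of reticulocyte remodelling, had the smallest p of the late maturation list at 168, 304 and 262 and 153 and 203 CPM (0.33, SE 0.11). Ftl1, ferritin light chain, stood at 1253, 2078 and 2454 and 1222 and 1616 CPM (0.30, SE 0.13).

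Hepatocyte genes stood slightly lower in TAF10HET, and none was called. Of 21 markers, 20 were tested and Tat was below the count filter. Among the 20, 17 had a difference below 0, 15 were lower on both date codes, 6 were lower and 1 higher at unadjusted p under 0.05 (beside 1.32% and 2.04% of all genes), and 7 lay below both WT livers in all 3 TAF10HET livers (beside 4.95% of all genes). The median was -0.21, beside 0.0088 over all genes, and it was -0.14, -0.28 and -0.28 for TAF10HET replicates 1 to 3 against the control of their date code. Without WT replicate 2 the median was -0.065, 0 members had an unadjusted p under 0.05, and 13 lay below 0.

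Afp, the fetal counterpart of albumin, stood at 8784, 6602 and 6992 CPM in TAF10HET and 10316 and 8821 CPM in WT. All 3 TAF10HET livers were below both controls (-0.30, SE 0.12, adjusted p = 0.999 by edgeR's quasi-likelihood test). Alb, which encodes albumin, overlapped between groups at 6664, 4521 and 4473 and 7185 and 5628 CPM (-0.22, SE 0.11). The fibrinogen chain genes had a like size of difference. Fgg stood at 167, 107 and 110.2 CPM in TAF10HET and 199.9 and 150.04 CPM in WT (-0.37, SE 0.083). Fga and Fgb had differences of -0.35 and -0.32. Apob, the core protein of very low density lipoprotein, stood at 757, 553 and 689 and 1038 and 858 CPM with no overlap (-0.42, SE 0.19). Hnf4a, the transcription factor of hepatocyte identity, stood at 76.9, 71.1 and 76.2 and 87.9 and 84.1 CPM, also with no overlap (-0.17, SE 0.11).

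The list had exceptions. Trf, which encodes transferrin, was higher in each TAF10HET liver than in the control of its date code, by 0.31, 0.29 and 0.61 (0.39, SE 0.12). Apoa2 stood at 417, 294 and 275 CPM in TAF10HET and 399 and 247 CPM in WT (0.15, SE 0.082). Dlk1, a marker of hepatoblasts, differed by 0.02 (SE 0.13). Summed over the list, TAF10HET replicates 1 to 3 held 24319, 17343 and 18167 CPM and the controls 26950.5 and 22188 CPM, with groups that overlapped. The first date code was the higher in both groups.

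**Figure D4:**
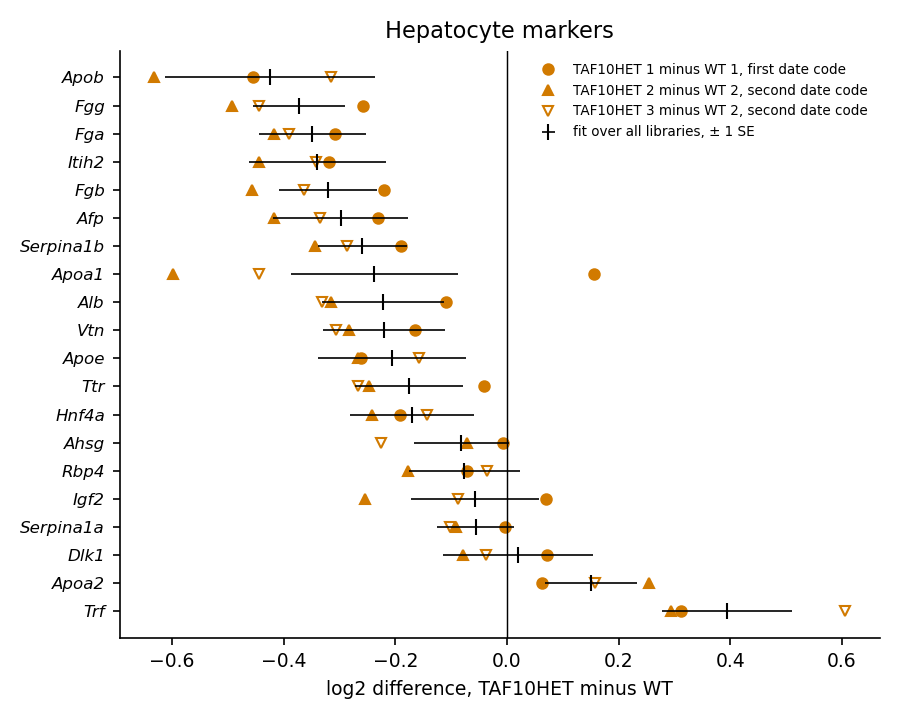
Log2 difference of TAF10HET from WT for the 20 hepatocyte markers tested, with each liver against the control of its date code (symbols) and the fit over all libraries with 1 SE (black). The fitted value lies below 0 for 17 markers and above 0 for Dlk1, Apoa2 and Trf, and the livers of the second date code share 1 control.

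The lower genes named by smallest p were of several kinds, and no list was fixed for them. Fabp1, the fatty acid binding protein of hepatocytes, stood at 27.7, 24.4 and 25 CPM in TAF10HET and 32.5 and 34.3 CPM in WT. Coagulation factor gene F5 stood at 44.7, 50.2 and 54 and 64.6 and 66 CPM, and complement gene C8b at 7.29, 5.37 and 6.16 and 11 and 9.70 CPM. In all 3 the TAF10HET livers lay below both controls, with differences of -0.38, -0.40 and -0.66. Pygl, liver glycogen phosphorylase, stood at 55.5, 59.2 and 55.7 and 66.6 and 73 CPM (-0.30, SE 0.073), and Abca6, a lipid transporter, at 13, 10.8 and 10.8 and 18.7 and 17.7 CPM (-0.61, SE 0.15). Serpind1, heparin cofactor II, overlapped at 161, 110.02 and 121 and 199 and 154 CPM (-0.36). None passed the adjusted threshold of edgeR's quasi-likelihood test.

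The lowest difference among the genes named by smallest p was that of Dynlt1b, a dynein light chain gene with near-identical copies on chromosome 17. It stood at 6.47, 14.4 and 16.3 CPM in TAF10HET, 22.5 and 31.9 CPM in WT and 21.3 and 21.1 CPM in TAF10KO. The TAF10HET livers lay below both WT and both TAF10KO livers (-1.27, SE 0.25, adjusted p = 0.999 by edgeR's quasi-likelihood test). It passed with DESeq2 (adjusted p = 0.00105), with embryo sex as a term (0.000917) and with no filter (1.73e-16). The last of these fits takes little account of the spread between livers. Over the other alternatives the adjusted p ran from 0.0535 to 1. Noct, a gene of the circadian program, stood at 243, 343 and 326 and 353 and 423 CPM, with no overlap (-0.45, SE 0.11). Cds2, an enzyme of phospholipid synthesis, and Deptor, an inhibitor of mTOR, had differences of -0.28 and -0.41, and Prg3, an eosinophil granule gene, of -0.77.

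On the higher side, Mt2, a metal-binding metallothionein gene, stood at 672, 909 and 862 CPM in TAF10HET and 455 and 727 CPM in WT. The groups overlapped, and each TAF10HET liver was above its own control, by 0.56, 0.32 and 0.25 (0.40, SE 0.10). TAF10KO livers stood at 1018 and 1606 CPM. Sertad1, a regulator of cyclin-dependent kinase 4, stood at 14, 16.9 and 15 and 10.1 and 11.2 CPM with no overlap (0.48, SE 0.11). Sh2b2, an adaptor of kinase receptors, stood at 3.67, 3.56 and 3.11 and 2.48 and 1.76 CPM with no overlap (0.74, SE 0.20). Efs, Dmpk, Zfp703 and Pdlim7 had differences of 1.08, 0.44, 0.51 and 0.36, and all 4 overlapped between groups. Of the 23 genes named by smallest p without a call, which all averaged 1 or more in log2 CPM, the adjusted p by edgeR's quasi-likelihood test ranged from 0.393 to 0.999. Rprl3, below that level, had an adjusted p of 0.277 by the same test.

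TAF10HET replicate 1 carried muscle and mesenchymal transcripts. Summed over 12 cardiac and skeletal muscle markers, TAF10HET replicates 1 to 3 held 135, 10.4 and 10.3 CPM and the controls 18.4 and 10.02 CPM. Actc1, cardiac actin, stood at 49.1, 2.55 and 3.11 CPM in TAF10HET and 1.79 and 2.51 CPM in WT, and Ttn, titin, at 24, 1.08 and 0.880 and 0.474 and 0.789 CPM. The defining marker Nppa was at 0 in all 5 libraries, and Myl2 stayed under 0.1 CPM. The list's median was 2.50 over the 7 members tested and 0.17 without TAF10HET replicate 1. No member was called.

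Mesenchymal markers showed both a date difference and a difference within the first date code. They summed to 2771, 245 and 245 CPM in TAF10HET and 1558 and 221 CPM in WT. All 13 members tested were higher in TAF10HET in the fit, with a median of 0.30, which was -0.082 without TAF10HET replicate 1. Col3a1, a fibrillar collagen gene, stood at 833, 66.5 and 69.5 and 484 and 62.7 CPM, and Acta2, smooth muscle actin, at 59.4, 8.93 and 7.92 and 32.2 and 6.40 CPM. Mesothelial markers behaved likewise, with a median of 0.50 that was 0.0099 without that liver. In it 10.1% of the reads counted fell in no gene, against 6.81% to 9.09% in the other 4 libraries. The part of these transcripts in other results was not tested, and Hbb-bt stood at 2.96 without that liver.

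The other cell types of the liver had medians between -0.11 and 0.12. Endothelial markers had a median of 0.059 over 15 genes, macrophage markers 0.12 over 12, megakaryocyte markers -0.089 over 14 and neutrophil markers -0.11 over 13, with 0 called in each. Stab1, a scavenger receptor of liver sinusoids, stood at 79.9, 51.5 and 48.7 CPM in TAF10HET and 76.7 and 42.5 CPM in WT. Vcam1, carried by macrophages of erythroblastic islands, stood at 97.1, 49.2 and 57.6 and 111 and 58.8 CPM. S100a9, a granulocyte gene, stood at 96.2, 171 and 128 and 113 and 173 CPM, and Itgb3, an integrin of platelets, at 153, 189.7 and 196 and 203 and 177 CPM. In each of these 4 genes the groups overlapped.

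Among programs of stress and growth, the interferon list had the median farthest from that of all genes. Interferon response genes had a median of 0.34 over 16 genes, with 15 above 0 (beside 52.7% of all genes), 2 higher at unadjusted p under 0.05 (beside 2.04%) and 0 called. The median was -0.03, 0.60 and 0.21 for TAF10HET replicates 1 to 3 against the control of their date code, so the livers did not share a direction. Irf7, an interferon-induced regulator, stood at 4.91, 11.1 and 4.28 CPM in TAF10HET and 4.66 and 2.74 CPM in WT, highest in TAF10HET replicate 2. Cdkn1a, the p53 target that encodes p21, stood at 9.88, 8.43 and 6.04 and 5.06 and 5.57 CPM, and all 3 livers were above both controls (0.62, SE 0.24).

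DNA replication genes had a median of -0.056 over 20 genes, with 11 lower and 0 higher on both date codes, and mitosis genes -0.048 over 17. Single differences were small. Tyms, thymidylate synthase, stood at 145, 172 and 174 CPM in TAF10HET and 152 and 192 CPM in WT (-0.11, SE 0.076). Bub1, a spindle checkpoint kinase, stood at 129, 158 and 154 and 146 and 161 CPM (-0.11, SE 0.078). Hypoxia and glycolysis genes had a median of -0.028 over 24 genes, and Gapdh stood at 119, 157 and 168 and 132 and 202 CPM (-0.25, SE 0.079). Asns, an ATF4 target that makes asparagine, had a difference of -0.17, in a stress response list with a median of -0.061.

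**Figure D5:**
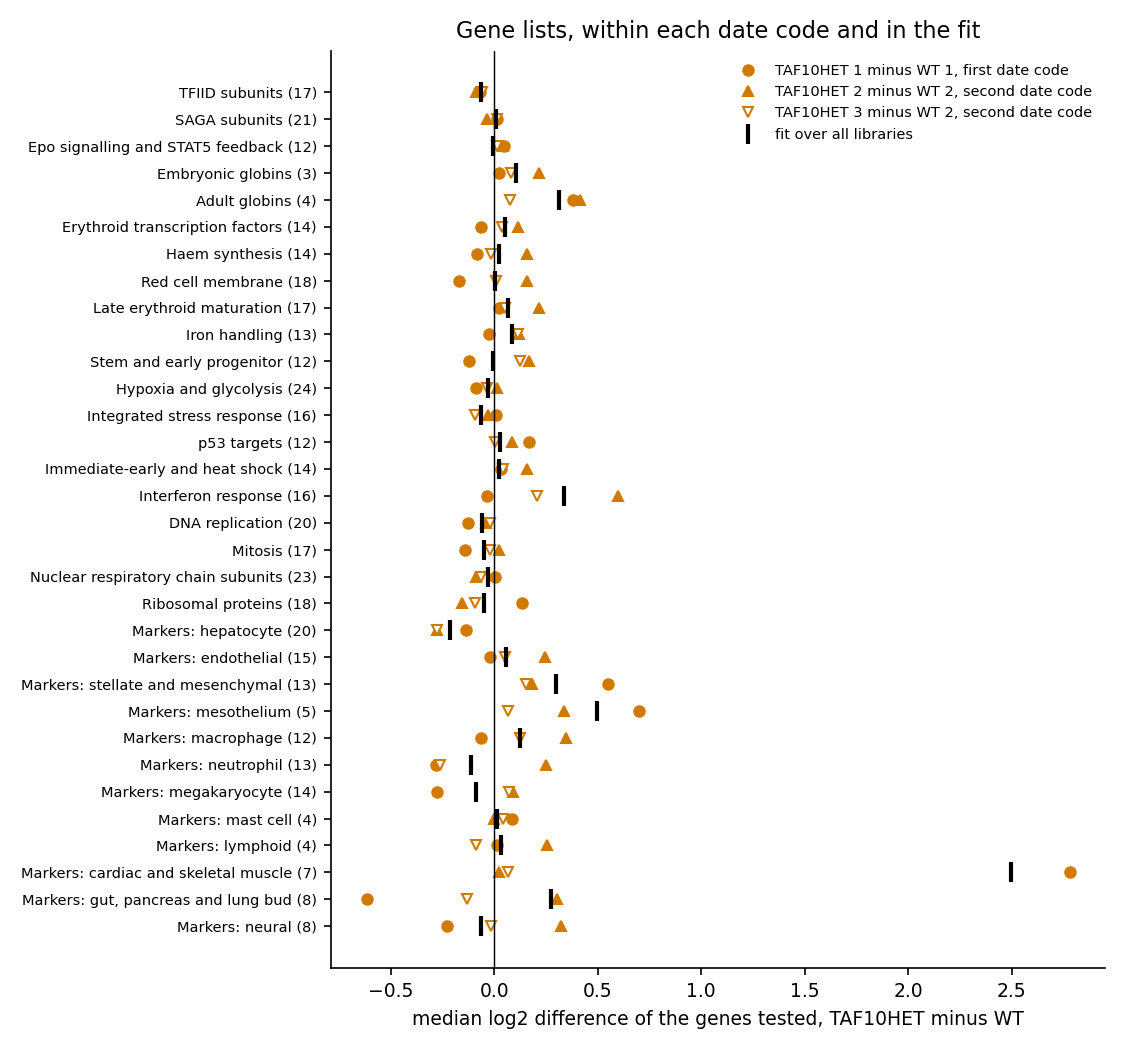
Median log2 difference of TAF10HET from WT for 32 gene lists (number of genes tested in brackets), for each liver against the control of its date code (orange) and in the fit over all libraries (black bars). Muscle markers lie at 2.78 for TAF10HET replicate 1 and at 0.03 and 0.07 for the other livers, and hepatocyte markers lie below 0 in all 3.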

How the data were processed

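The deposited files give raw counts of reads per Ensembl gene, 39017 genes in each, made by the authors with TopHat2 2.0.8 and DESeq2 among their tools and mm10 as build, per the submitters' processing notes. No source used here gives the counting program, strand setting or annotation, so reads of overlapping or antisense genes cannot be told apart. Summary lines stayed out of the totals: reads in no gene made up 6.81% to 10.1% of each of the 7 libraries, ambiguous reads 3.98% to 5.94% and reads aligned to several places 14.1% to 22.2%. Symbols came from GENCODE M21 for 37693 identifiers, and the 1324 unmatched held 0.198% of counts.

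edgeR 4.0.16 (R 4.3.3) was fitted to all 7 libraries with TMM factors, filterByExpr by group, robust dispersions, the quasi-likelihood F test (two-sided, Benjamini-Hochberg over 15800 genes, threshold 0.05) and the date code as a block. The code was read as a shared day, which the labels do not state. Deviations from group means correlated at 0.55 to 0.74 across genes between TAF10HET and WT libraries of the same code and at -0.74 to -0.55 between codes, and in a group of 2 they mirror each other by construction. No replicate was a copy of another by chi-square. CPM use TMM-scaled totals, log2 CPM within dates a prior count of 2, and RPKM the GENCODE exon length. The SE is the fitted difference divided by the square root of F. The fit was tested on simulated data.

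Genes named were Taf10, Epor, the called gene, up to 12 genes per direction by smallest p (mean log2 CPM of at least 1 over the 5 livers, same direction on both date codes, no sex-linked, predicted or pseudogene symbols), the smallest p and the most abundant member of each list and 6 genes within 2 Mb of Taf10. Further list members, globins and neighbours of Taf10 were named after their values were seen. The groups compared, the 32 lists and the rule were chosen with earlier results of these data known. Alternatives were other scaling factors, filters, DESeq2 1.42.0, non-robust dispersions, embryo sex as a term, no block, 5 libraries, and each library left out.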

Additional observations from a re-analysis of the deposited data

Results flagged for a closer look

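The difference of TAF10HET from WT was not the same on both date codes for 6 named genes, by a test of that difference in a fit with 1 residual degree of freedom. The gap (second date code minus first, log2) was -0.72 for Taf10, -0.83 for Epor, -0.67 for Rps3, -0.67 for Col3a1, 0.53 for Itgb3 and -4.62 for Actc1, with adjusted p of 0.0138, 0.0153, 0.0250, 0.0178, 0.0478 and 0.000290 by edgeR's quasi-likelihood test. Xist had a gap of 9.32, beside a male TAF10HET liver on the first date code and females otherwise. On the first date code there is 1 liver per group, and on the second there is 1 WT liver. Single livers, allele type, embryo sex and date code therefore cannot be told apart.

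In 11 lists the median difference on the first date code had the opposite sign to both livers of the second, which was not tested. The first-date medians were -0.065 for erythroid transcription factors, -0.17 for red cell membrane, -0.026 for iron handling, -0.12 for stem and progenitor genes, 0.010 for the integrated stress response, -0.033 for interferon response, 0.0066 for nuclear respiratory chain subunits, 0.13 for ribosomal proteins, -0.020 for endothelial, -0.065 for macrophage and -0.28 for megakaryocyte markers.

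Reads that fell in no annotated gene made up 10.1%, 7.34% and 9.09% of the reads counted in TAF10HET replicates 1 to 3, above 6.81% and 7.23% in WT replicates 1 and 2. These reads were not used in any comparison.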

How the results depend on the processing

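The number of genes called (1, Hbb-bt, higher) was 0 with no replicate block and with non-robust dispersions. It was 7 (all higher) on the 5 libraries alone, 9 with DESeq2 (8 higher, 1 lower), 289 with no filter (236 higher, 53 lower) and 32 with embryo sex as a term (15 higher, 17 lower). Leaving out 1 library gave 0 to 13 genes, 0 to 13 of them higher and 0 to 3 lower. Within the lists, 1 gene was called, and 0 with no replicate block or non-robust dispersions, 3 on 5 libraries, 2 with DESeq2, 20 with no filter, 4 with embryo sex and 0 to 3 over the leave-outs. Around Taf10, 1 gene was called, and 0 with no replicate block or non-robust dispersions, 3 on 5 libraries, 4 with DESeq2, 11 with no filter, 6 with embryo sex and 0 to 3 over the leave-outs. Gm1966, which passed the count filter only through TAF10HET, was among those on 5 libraries, with DESeq2 and with embryo sex. Epor passed with no filter (-0.50, adjusted p = 1.25e-05 by edgeR's quasi-likelihood test), in a fit that takes little account of the spread between livers. The date gap of Taf10 was -0.73 with DESeq2 and lost its call. The date codes pair livers by the correlations under the processing description, and without them the spread between libraries rose from 13.4% to 33.9% (biological coefficient of variation). For named genes, 1275 of 1364 values kept their direction and side of the threshold, 41 newly passed, 5 no longer passed, and 43 changed sign. With no replicate block Sf3b3 was 0.021, Bcl11a 0.0011, Kit 0.031, Rrm2 0.028 and Mki67 0.042. On 5 libraries Car2 was -0.0031 and Atp5b -0.012. With embryo sex Sf3b3 was 0.053, Pim1 -0.0038, Ccng1 -0.063, Hsp90aa1 -0.024, Rrm2 0.030, Mki67 0.061 and Upk3b -0.0025. Over the leave-outs the ranges that cross 0 were Sf3b3 -0.061 to 0.10, Pim1 -0.033 to 0.076, Tal1 -0.020 to 0.20, Slc25a37 -0.054 to 0.18, Slc4a1 -0.037 to 0.32, Car2 -0.051 to 0.050, Kit -0.22 to 0.060, Ccng1 -0.10 to 0.11, Hsp90aa1 -0.061 to 0.062, Rrm2 -0.13 to 0.079, Mki67 -0.083 to 0.12, Atp5b -0.036 to 0.087, Col3a1 -0.082 to 0.51, Upk3b -0.22 to 0.52, Itgb3 -0.31 to 0.077, Cd79b -0.42 to 0.22 and Map2 -0.47 to 0.11. The TRIM, olfactory and pseudogene reads around Taf10 are limited by depth, at 0 to 3 in each control for the 4 genes named by smallest p.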

Other observations

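Markers of organs next to the liver were also measured. Gut, pancreas and lung bud markers summed to 124, 90.9 and 82.5 CPM in the TAF10HET livers and 136 and 101 CPM in WT, most of it from the keratin genes Krt8 and Krt18. Krt18 stood at 51, 33 and 32.8 CPM in TAF10HET and 53.4 and 42.6 CPM in WT (-0.24, SE 0.092). Neural markers summed to 17.7, 6.38 and 5.04 CPM in TAF10HET and 16.8 and 5.57 CPM in WT, higher on the first date code in both groups. The medians were 0.28 and -0.065, with 0 called in either list by edgeR's quasi-likelihood test and 1 at unadjusted p under 0.05.

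Lists not described above had small medians beside 0.0088 over all genes, with 0 called by edgeR's quasi-likelihood test and at most 1 member at unadjusted p under 0.05 in each. The median was -0.0074 for 12 stem and progenitor genes, 0.031 for 12 p53 targets, 0.022 for 14 immediate-early and heat-shock genes, -0.029 for 23 nuclear respiratory chain genes and -0.049 for 18 ribosomal protein genes. Rps3, a ribosomal protein gene on chromosome 7, stood at 1442, 1888 and 2041 CPM in TAF10HET and 1359 and 2951 CPM in WT, with the second WT liver far above the other 4 libraries. Fosb, an immediate-early gene, stood at 0.103, 0.928 and 0.469 CPM in TAF10HET and 0 and 0.186 CPM in WT. These came from 2, 24 and 8 reads in TAF10HET and 0 and 4 reads in WT. Few markers of mast cells and lymphocytes passed the count filter, 4 of 8 and 4 of 11, with medians of 0.013 and 0.032. Rag1, a recombinase of lymphocyte precursors, stood at 0.517, 1.16 and 0.704 CPM in TAF10HET and 0.437 and 0.371 CPM in WT.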
